A study of Homo sapiens with 12 samples.

Results

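The extracellular proteases of the matrix metalloproteinase (MMP), ADAM and ADAMTS families and their inhibitors, the TIMPs, were followed across HEK293T lines that express wild-type or mutated EZH2. Genes were taken by symbol: every row of the count table whose symbol begins with ADAMTS, with ADAM, MMP and a number, or with TIMP1 to TIMP4, leaving out antisense transcripts. No measured value entered the rule, although members were chosen with earlier results of these data known. It found 43 of the 14438 genes in the table. They were 9 MMPs, 12 ADAMs, of which 1 (ADAM1A) is annotated as a unitary pseudogene, 16 ADAMTS genes, 3 ADAMTS-like genes and 3 TIMPs.

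These enzymes are zinc-dependent proteases that act outside the cell or at its surface. MMPs cleave collagens and other matrix proteins, and some are anchored in the plasma membrane. ADAMs are membrane proteins, and those with a working active site cut the extracellular part of other membrane proteins free, a step called shedding, whereas other ADAMs lack catalytic activity and serve as binding proteins. ADAMTS enzymes are secreted and process procollagens or cleave proteoglycans, ADAMTS-like proteins resemble them without the protease domain, and TIMPs bind and inhibit many members of all these families.

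HEK293T is a human embryonic kidney line. Lentivirus introduced EZH2 into each of 4 lines, and cells were selected with blasticidin toward monoclonal populations, as the study's methods describe. EZH2 is the catalytic subunit of the repressive PRC2 complex. The control line received EZH2 WT, so that all 4 lines carry an introduced EZH2 beside the cells' own gene. EZH2 Y641F and EZH2 A677G are gain-of-function (GOF) mutants, and EZH2 H689A/F667I is a loss-of-function (LOF) double mutant. Each line was sequenced in 3 biological replicates grown in DMEM with fetal bovine serum. A line may stand for 1 clone, so a difference between lines cannot be told apart from a difference between clones, and p-values measure the spread between replicates of a line.

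Total counts per sample lay between 32137700 and 44562413. EZH2 transcripts of both the introduced and the endogenous gene reached 158 ± 4.32 (SD, n = 3) CPM in EZH2 WT, 218 ± 9.61 in Y641F, 173 ± 8.57 in A677G and 208 ± 2.03 in the LOF mutant, where CPM are counts divided by the library total, scaled by its TMM factor. Of 9 genes listed as markers of embryonic kidney and HEK293 cells, 7 were in the table, PAX8 and CDH6 not being among them, and their summed level was between 618 and 640 CPM in WT, 474 and 514 in Y641F, 440 and 474 in A677G, and 562 and 564 in the LOF mutant. The neurofilament genes NEFL and NEFM, which are part of this list, were downregulated in all 3 mutant lines. Fibroblast markers (5 of 9 in the table) summed to between 14.3 and 15.7 CPM in WT, 17.7 and 27.4 in Y641F, 15.8 and 17.6 in A677G, and 15.5 and 19.1 in the LOF mutant. Among them COL3A1 was upregulated in Y641F and A677G (log2 fold changes 1.34 and 0.93) and LUM in Y641F (log2 fold change 0.90). Of 5 endothelial markers, KDR alone was in the table, at 0.673 to 0.784 CPM in WT, 0.105 to 0.428 in Y641F, 0.165 to 0.404 in A677G and 0.497 to 0.611 in the LOF mutant, and it was downregulated in both GOF mutants (log2 fold changes -1.41 and -1.24). Leukocyte markers were represented by CD68 (1 of 8). The part of these marker shifts in the results was not tested. In a bulk sample, fewer cells of a type and less RNA per cell cannot be told apart. Replicate 1 of Y641F stood apart on the principal components of all genes (PC1 score 5.60, against 17.7 and 17.1 in replicates 2 and 3), and it is among the sample values given below.

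In CPM, which are not scaled by transcript length, a few enzymes carried most of the signal of the 43 genes in the WT line. ADAM9, ADAMTS1, ADAM10 and ADAM15 together held 51.6% of the CPM of all 43 genes. Per kilobase of transcript, ADAM9, a widely expressed sheddase, was highest at 31.4 CPM per kb, followed by TIMP1 at 27.4, ADAM15 at 20.4 and ADAMTS1 at 19.8. ADAM17, the sheddase that releases TNF, stood at 10.9 CPM per kb, TIMP3 at 8.88 and ADAM10, the sheddase of Notch receptors and of the amyloid precursor protein, at 6.47. The MMPs were low by comparison. The most abundant MMP was the membrane-bound MMP15 at 3.11 CPM per kb, whereas the gelatinases MMP2 and MMP9 reached 0.564 and 0.253 and MMP14 only 0.105. ADAMTS4, at 0.0565 CPM per kb, was the lowest of the 43.

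**Figure D1:**
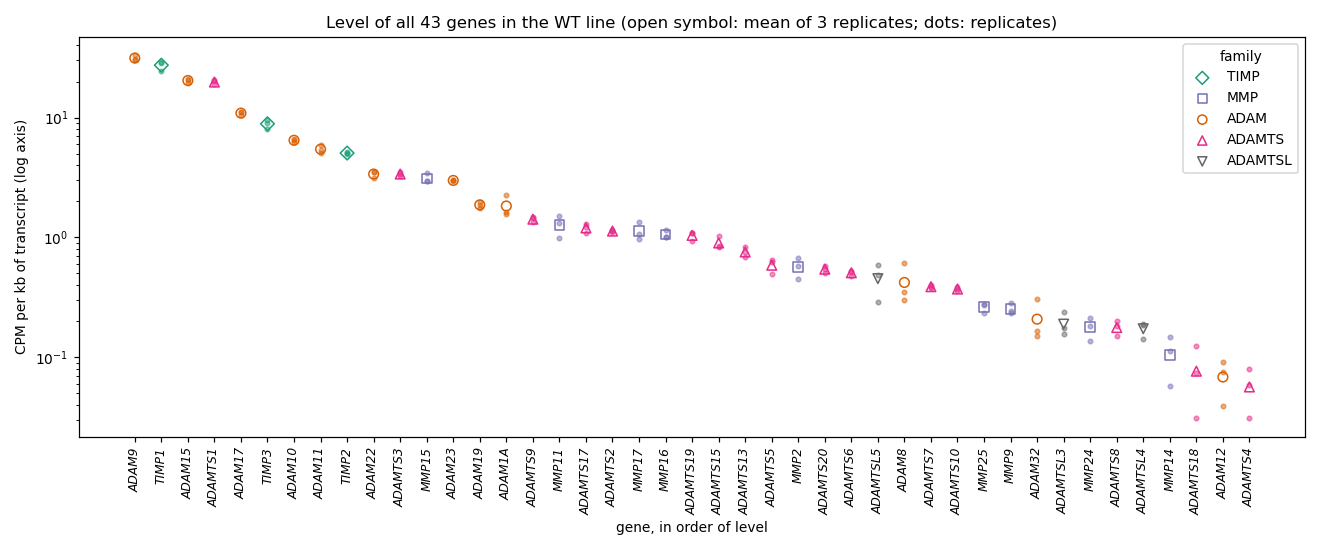
Level of all 43 genes in the EZH2 WT line, in CPM per kilobase of transcript on a log axis, with genes in order of level. Open symbols are means of 3 replicates, dots are the replicates, and colours mark families; the levels run from 31.4 (ADAM9) down to 0.0565 (ADAMTS4).

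The summed level of the 43 genes differed little between lines: 705 ± 5.39 (SD, n = 3) CPM in WT, 727 ± 43.0 in Y641F, 693 ± 17.6 in A677G and 739 ± 5.07 in the LOF mutant. Single genes were then compared between lines with edgeR's quasi-likelihood test, with p-values adjusted by the Benjamini-Hochberg method over 14263 genes and a threshold of 0.05, and every adjusted p given here is of that test. MMP14 could not enter it, being at 0 in all A677G replicates, which left 42 of the 43. All comparisons with WT share the same 3 control samples.

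In EZH2 Y641F, 5 of the 42 genes were downregulated and 4 were upregulated, against 5.59% and 2.09% of all genes tested in the same directions. The downregulated genes were TIMP3, MMP2, ADAM19, ADAM23 and ADAMTS2, and the upregulated ones ADAM10, ADAMTS1, ADAMTS5 and ADAMTSL4. In EZH2 A677G, 10 genes were downregulated and 3 upregulated, against 6.48% and 2.07% of all genes. These included the same 5 downregulated genes together with MMP17, ADAMTS9, ADAMTS15, ADAMTS20 and ADAMTSL3, whereas ADAM10, ADAMTS1 and ADAMTS5 were again upregulated. In the LOF mutant no gene of the 42 was downregulated and 1, ADAMTS5, was upregulated, against 0.161% and 0.140% of all genes. At an unadjusted p under 0.05, 1 of the 42 was lower and 4 were higher, beside 585 lower and 599 higher of all 14263 genes tested. The median log2 fold change of the 42 genes was -0.04 in Y641F, -0.12 in A677G and -0.00 in the LOF mutant, where the median of all genes tested was 0.00 in each. Without Y641F replicate 1 the Y641F counts were 7 and 2, and without WT replicate 3 they were 3 and 2. Without A677G replicate 1 the A677G counts were 8 and 0, and without A677G replicate 3 they were 6 and 2. The shares of all genes called in these smaller fits were not counted. A change in these counts therefore cannot be told apart from a change over all genes. Without WT replicate 3, or without LOF replicate 1, ADAMTS5 was no longer called in the LOF mutant. The shifts of COL3A1, KDR, NEFL and NEFM given above were seen in the same GOF lines, and their part in these counts was not tested. The remaining 28 genes passed the threshold in none of the 3 lines.

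**Figure D2:**
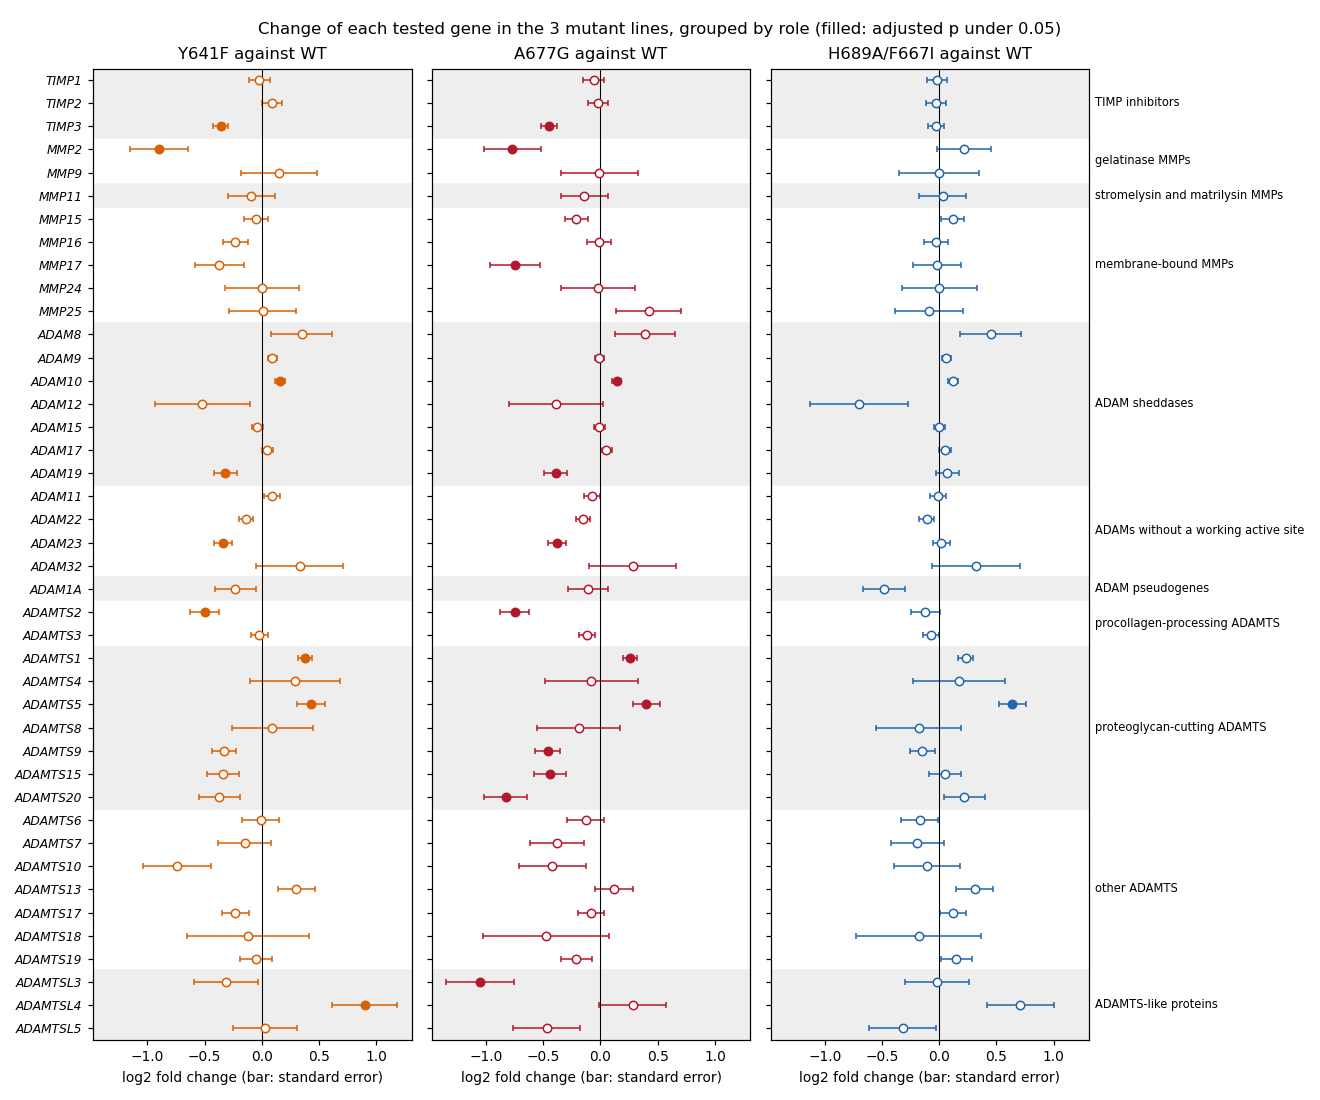
Log2 fold change against EZH2 WT (x axis) of the 42 tested genes (y axis), grouped by role, in Y641F, A677G and H689A/F667I. Bars are standard errors, filled points have an adjusted p under 0.05. Filled points number 9 in Y641F, 13 in A677G and 1, ADAMTS5, in the LOF mutant.

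The upstream sequence of genes from these groups is shown because PRC2 in mammalian cells is known for occupying promoters rich in CG dinucleotides. RefSeq start sites with promoter sequence on GRCh38.p14 were at hand for 27 of the 43 genes. The 250 bases before the start held a median of 20.0 CG dinucleotides over 15388 promoters of tested genes (98.6% had at least 1; CG reads the same on both strands), and a median of 25.0 over the 27. The 6 genes with an entry that were downregulated in a GOF line (ADAM19, ADAM23, ADAMTS2, ADAMTS20, ADAMTSL3 and TIMP3) had a median of 29.5, and 18 genes past the threshold in no line had 24.5. These are descriptions of small groups and were not tested. ADAMTS2 and ADAMTSL3 each held 40, which 3.44% of the promoters reach, whereas MMP14 held 7, which 83.9% reach. The count did not follow the direction of change gene by gene: the upregulated ADAMTSL4 held 38, as did ADAMTSL5, and ADAM15 held 36, the latter 2 past the threshold in no line, whereas the downregulated ADAM19 and ADAMTS20 held 21 and 22. The bases next to the start site follow for 4 downregulated genes and for MMP14, written in the direction of transcription in lower case with each CG in capitals. Only bases outside the annotated gene are printed.
TIMP3, chr22:32801555-32801704, plus strand: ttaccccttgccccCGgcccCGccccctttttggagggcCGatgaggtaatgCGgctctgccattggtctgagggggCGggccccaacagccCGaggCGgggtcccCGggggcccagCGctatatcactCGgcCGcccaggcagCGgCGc
ADAM23, chr2:206443382-206443531, plus strand: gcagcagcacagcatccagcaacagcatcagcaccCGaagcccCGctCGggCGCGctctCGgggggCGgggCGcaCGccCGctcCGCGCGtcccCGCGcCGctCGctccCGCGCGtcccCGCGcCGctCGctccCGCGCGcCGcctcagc
ADAMTS2, chr5:179345462-179345611, minus strand: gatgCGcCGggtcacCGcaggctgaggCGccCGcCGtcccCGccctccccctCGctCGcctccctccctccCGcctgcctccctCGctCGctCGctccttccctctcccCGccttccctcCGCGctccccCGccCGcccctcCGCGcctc
ADAMTS20, chr12:43552204-43552353, minus strand: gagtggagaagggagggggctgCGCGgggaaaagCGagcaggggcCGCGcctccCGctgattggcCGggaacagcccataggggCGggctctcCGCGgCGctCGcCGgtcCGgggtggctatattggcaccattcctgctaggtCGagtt
MMP14, chr14:22836435-22836559, plus strand: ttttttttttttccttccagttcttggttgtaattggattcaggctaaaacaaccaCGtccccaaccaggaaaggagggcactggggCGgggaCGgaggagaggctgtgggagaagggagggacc
The stretch of ADAM23 held 28 CG and that of ADAMTS2 held 20, against 13 at TIMP3 and 3 in the 125 bases shown for MMP14.

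Among the inhibitors, TIMP3 was downregulated in both EZH2 GOF mutants, and TIMP1 and TIMP2 did not pass the threshold in any line. TIMP3 (ENSG00000100234.12, chr22:32801705-32863041) binds to the extracellular matrix and inhibits ADAMs and ADAMTS enzymes as well as MMPs. Its level was 41.8, 43.8 and 36.7 CPM in the WT replicates. Y641F had 35.5, 31.4 and 28.5 CPM and A677G had 28.0, 30.4 and 31.6 CPM. All 6 GOF values lay below the lowest WT value, whereas the LOF values of 38.2, 40.3 and 41.2 CPM lay within the WT range. TIMP3 fell by 22.2% in Y641F (log2 fold change -0.36, SE 0.0684, adjusted p = 3.62e-04) and by 26.7% in A677G (log2 fold change -0.45, SE 0.0688, adjusted p = 1.49e-05). The log2 fold change in the LOF mutant was -0.03 with an SE of 0.0679 (adjusted p = 0.931).

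TIMP1, a secreted inhibitor of most MMPs, ranged from 19.0 to 22.4 CPM in WT, 17.8 to 23.8 in Y641F, 18.9 to 22.6 in A677G and 18.9 to 21.8 in the LOF mutant. TIMP2, which also takes part in the activation of pro-MMP2 at the cell surface, ranged from 18.1 to 19.0 CPM in WT, 16.8 to 22.6 in Y641F, 17.1 to 20.0 in A677G and 16.9 to 19.6 in the LOF mutant. The replicates overlapped between each mutant and WT for both inhibitors. Their log2 fold changes lay between -0.06 (TIMP1 in A677G) and 0.09 (TIMP2 in Y641F), with SEs of 0.0869 to 0.0899.

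MMP2 was the one secreted MMP that changed. MMP2 (ENSG00000087245.13, chr16:55389700-55506691), or gelatinase A, cleaves denatured collagen and collagen IV of basement membranes. Its counts were low: 58, 78 and 78 in WT, 58, 30 and 42 in Y641F, 52, 38 and 50 in A677G and 86, 82 and 80 in the LOF mutant. In CPM these are 1.57, 2.02 and 2.35 in WT, 1.38, 0.788 and 0.993 in Y641F, 1.17, 0.934 and 1.37 in A677G, and 2.33, 2.09 and 2.48 in the LOF mutant. Every GOF value lay below every WT and LOF value. MMP2 fell by 46.4% in Y641F (log2 fold change -0.90, SE 0.253, adjusted p = 0.0199) and by 41.5% in A677G (log2 fold change -0.77, SE 0.251, adjusted p = 0.0464), and its log2 fold change was 0.22 (SE 0.237, adjusted p = 0.866) in the LOF mutant. Both calls depend on single samples: without WT replicate 2 or 3, or Y641F replicate 2 or 3, the adjusted p in Y641F was between 0.0726 and 0.108, and without WT replicate 2 or 3, or A677G replicate 1 or 2, that in A677G was between 0.117 and 0.208. Scaling by library totals alone gave 0.0507 in A677G. All 12 counts of MMP2 are even numbers, as are those of 154 genes in the table, among them 1 other protease, ADAM12. Of counts between 20 and 49, 61.6% were even, against 49.4% of counts of 5000 or more. Whether this has a part in the MMP2 values was not tested. The other gelatinase, MMP9, had 18 to 28 counts in every sample and log2 fold changes of 0.15, -0.01 and -0.00 in Y641F, A677G and the LOF mutant. MMP11, a stromelysin, had between 2.10 and 3.44 CPM, and its log2 fold changes were -0.09, -0.14 and 0.03.

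Of the 5 membrane-bound MMPs in the tests, MMP17 passed the threshold in EZH2 A677G. MMP17 (ENSG00000198598.7, chr12:131828393-131851783) is held in the membrane by a GPI anchor. It measured 3.22, 2.36 and 2.56 CPM in WT, 2.16, 2.57 and 1.56 in Y641F, 1.82, 1.74 and 1.26 in A677G and 2.19, 2.95 and 2.89 in the LOF mutant. The A677G values lay below those of WT, and the Y641F values overlapped them. MMP17 fell by 40.4% in A677G (log2 fold change -0.75, SE 0.220, adjusted p = 0.0252), a call lost without WT replicate 1 or A677G replicate 2 or 3 (adjusted p from 0.0504 to 0.171). In Y641F the log2 fold change was -0.37 (SE 0.214, adjusted p = 0.356). MMP15, MMP16, MMP24 and MMP25 passed the threshold in no line, the first 3 with log2 fold changes between -0.23 and 0.12. The GPI-anchored MMP25 had the widest span, with log2 fold changes from -0.09 in the LOF mutant to 0.42 in A677G at 26 to 65 counts a sample.

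MMP14 (ENSG00000157227.14, chr14:22836560-22849041), also named MT1-MMP, is the membrane-bound collagenase that activates pro-MMP2 on the cell surface together with TIMP2. Its counts were 20, 16 and 7 in WT, 17, 24 and 11 in Y641F, 0, 0 and 0 in A677G, and 85, 110 and 94 in the LOF mutant. In the LOF mutant its level was 2.30, 2.80 and 2.92 CPM, against 0.541, 0.414 and 0.211 in WT and 0.404, 0.630 and 0.260 in Y641F. All LOF values lay above all WT values, and the WT and Y641F values overlapped. With genes at 0 in a line kept in the fit, MMP14 was upregulated in the LOF mutant (log2 fold change 2.75, SE 0.347, adjusted p = 2.16e-05), where 0.208% of 14438 genes were called higher. The neighbouring genes on chromosome 14 did not pass the threshold in the same fit, with log2 fold changes of 0.01 (SLC7A7), 0.04 (MRPL52), 0.09 (LRP10) and 0.33 (REM2). MMP14 is listed at 0 in A677G as part of a larger pattern: 134 genes were at 0 in all 3 A677G replicates, 0 genes in exactly 2 of them and 3 genes in exactly 1. The LOF mutant had 100 genes at 0 in all 3 replicates, 59 of them among the 134, and WT and Y641F had 0. The 134 genes were low in WT, with mean counts between 6.33 and 29.0. A count of 0 allows up to 3 counts a library, or 0.0673 to 0.0823 CPM in the A677G libraries, so MMP14 was at least 5.22-fold lower in A677G than in WT if the zeros are counts, a bound that covers counting error only. Whether they are counts cannot be seen from the table.

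**Figure D3:**
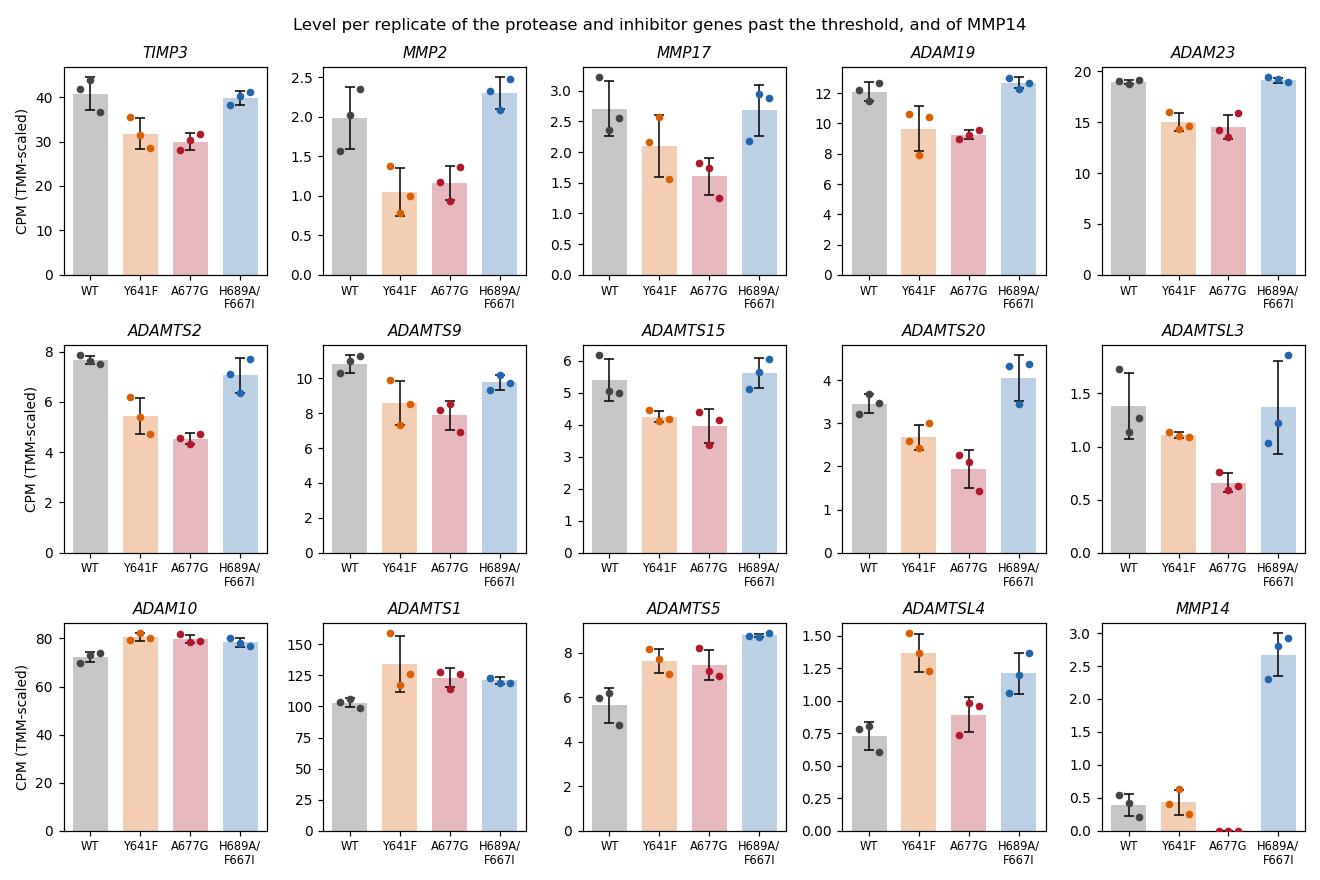
Level in TMM-scaled CPM (y axes from 0) in each replicate (points) of the 14 genes past the threshold in at least 1 line against WT, and of MMP14, by line (x axes). Bars are means and error bars SD (n = 3). MMP14 is at 0 in A677G and between 2.30 and 2.92 CPM in the LOF mutant.

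Within the 7 ADAM sheddases, ADAM19 was downregulated and ADAM10 slightly upregulated in both EZH2 GOF mutants, and the 5 others did not pass the threshold. ADAM19 (ENSG00000135074.16, chr5:157395534-157575775), a sheddase of neuregulins, measured 12.2, 11.5 and 12.7 CPM in WT, 10.6, 7.93 and 10.4 in Y641F, 8.95, 9.24 and 9.54 in A677G and 13.0, 12.3 and 12.7 in the LOF mutant. No GOF value reached the lowest WT value. It fell by 20.1% in Y641F (log2 fold change -0.32, SE 0.100, adjusted p = 0.0379) and by 23.7% in A677G (log2 fold change -0.39, SE 0.101, adjusted p = 0.00923). The Y641F call was lost without any 1 of the WT replicates or without Y641F replicate 2 (adjusted p from 0.0584 to 0.242) and under 5 other settings (adjusted p from 0.0553 to 0.0863), and the A677G call without A677G replicate 1 (adjusted p = 0.0531).

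ADAM10 (ENSG00000137845.15, chr15:58588809-58749791) rose by 11.6% in Y641F (log2 fold change 0.16, SE 0.0425, adjusted p = 0.0138) and by 10.5% in A677G (log2 fold change 0.14, SE 0.0425, adjusted p = 0.0249). WT replicates were at 69.8, 73.0 and 73.9 CPM, Y641F at 79.2, 82.2 and 80.4, A677G at 81.9, 78.5 and 78.9, and the LOF mutant at 80.4, 78.0 and 76.8. Every replicate of the 3 mutant lines lay above the highest WT replicate, although the LOF difference of 8.64% did not pass the threshold (adjusted p = 0.371). Without WT replicate 1, the adjusted p was 0.105 in Y641F and 0.161 in A677G, and without WT replicate 2, or A677G replicate 1 or 3, it was between 0.0567 and 0.146 in A677G. With upper-quartile factors it was 0.0596 in A677G.

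ADAM17 (ENSG00000151694.15, chr2:9488486-9556732) was level across the lines. It measured 49.2, 46.4 and 48.5 CPM in WT, 50.1, 48.5 and 50.1 in Y641F, 51.0, 50.5 and 47.5 in A677G and 49.1, 49.2 and 50.6 in the LOF mutant. Its log2 fold change was 0.05 in each mutant, with SEs of 0.0488 to 0.0491. ADAM9 and ADAM15, the most abundant sheddases per kilobase, had log2 fold changes between -0.04 and 0.09. ADAM8 (38 to 100 counts a sample) and ADAM12 (8 to 24 counts) had SEs from 0.265 to 0.430 on the log2 scale, so a change of the size seen at ADAM10 was not detectable at their depth.

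Of the 4 ADAMs without a working active site, ADAM23 was downregulated in both GOF mutants. ADAM23 (ENSG00000114948.13, chr2:206443532-206621127), like ADAM22 and ADAM11, is a neuronal adhesion protein that binds secreted LGI proteins. It was tightly measured at 19.0, 18.7 and 19.1 CPM in WT and 19.4, 19.2 and 18.9 in the LOF mutant. Y641F had 16.0, 14.3 and 14.6 CPM and A677G 14.2, 13.5 and 15.9 CPM, all below the WT values. It fell by 20.8% in Y641F (log2 fold change -0.34, SE 0.0777, adjusted p = 0.00363) and by 23.3% in A677G (log2 fold change -0.38, SE 0.0780, adjusted p = 7.88e-04), against a log2 fold change of 0.02 (SE 0.0770) in the LOF mutant. ADAM22 had log2 fold changes of -0.14, -0.15 and -0.11 in the 3 lines (adjusted p = 0.205, 0.133 and 0.681) and ADAM11 of 0.09, -0.07 and -0.01. ADAM32, at 14 to 40 counts a sample, passed the threshold in no line, and neither did the pseudogene ADAM1A, with log2 fold changes of -0.23, -0.11 and -0.48.

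Both procollagen-processing enzymes were measured, and ADAMTS2 alone changed. ADAMTS2 (ENSG00000087116.17, chr5:179110853-179345461) removes the amino-terminal propeptide of fibrillar procollagens. Its WT replicates were at 7.85, 7.61 and 7.51 CPM and its LOF replicates at 7.12, 6.34 and 7.70. The GOF values of 6.18, 5.38 and 4.73 CPM in Y641F and 4.55, 4.32 and 4.74 CPM in A677G were all lower than these. ADAMTS2 fell by 29.1% in Y641F (log2 fold change -0.50, SE 0.124, adjusted p = 0.00812) and by 40.7% in A677G (log2 fold change -0.75, SE 0.127, adjusted p = 6.27e-05). Without Y641F replicate 3 the Y641F call was lost (log2 fold change -0.40, adjusted p = 0.0736). The related ADAMTS3, which processes pro-VEGF-C as well, was more abundant, at 18.0 to 21.8 CPM over all samples, and had log2 fold changes of -0.02, -0.12 and -0.07.

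The 7 proteoglycan-cutting ADAMTS genes moved in both directions. In A677G, 3 were downregulated (ADAMTS9, ADAMTS15 and ADAMTS20) and 2 upregulated (ADAMTS1 and ADAMTS5), and in Y641F the same 2 were upregulated and none downregulated. Of all genes tested, 6.48% were lower and 2.07% higher in A677G, and 5.59% and 2.09% in Y641F. At an unadjusted p under 0.05, 2 of the 7 were lower in Y641F, beside 1621 of all 14263 genes tested. ADAMTS4 and ADAMTS8, at 10 to 40 counts a sample, passed the threshold in no line.

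ADAMTS1 (ENSG00000154734.16, chr21:26835755-26845409), an enzyme that cleaves aggrecan and versican, was the most abundant ADAMTS gene. WT had 104, 106 and 98.4 CPM, Y641F 159, 117 and 126, A677G 128, 114 and 126, and the LOF mutant 123, 119 and 119. All mutant replicates lay above WT, and replicate 1 of Y641F was the highest of all. It rose by 30.5% in Y641F (log2 fold change 0.38, SE 0.0627, adjusted p = 4.36e-05) and by 19.5% in A677G (log2 fold change 0.26, SE 0.0629, adjusted p = 0.00565), the latter call being lost without A677G replicate 1 (adjusted p = 0.0578) and with DESeq2 (adjusted p = 0.126). In the LOF mutant the difference was 17.5% (log2 fold change 0.23, SE 0.0632) with an adjusted p of 0.139, which passed the threshold when WT and the LOF mutant were fitted alone (adjusted p = 5.25e-04) and with a replicate block (adjusted p = 0.0447).

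ADAMTS5 (ENSG00000154736.6, chr21:26917922-26967088), the main aggrecanase of cartilage, was the 1 gene of the 42 tested that passed the threshold upward in all 3 mutant lines. The replicates of ADAM10 and ADAMTS1 also lay above WT in all 3, without passing it in the LOF mutant in the main fit. Its WT replicates were at 5.95, 6.21 and 4.74 CPM. Y641F had 8.15, 7.70 and 7.05 CPM, A677G 8.23, 7.20 and 6.97, and the LOF mutant 8.77, 8.71 and 8.88. No mutant value overlapped WT, and the LOF values were the highest. The rise was 35.0% in Y641F (log2 fold change 0.43, SE 0.119, adjusted p = 0.0171), 32.3% in A677G (log2 fold change 0.40, SE 0.120, adjusted p = 0.0256) and 55.4% in the LOF mutant (log2 fold change 0.64, SE 0.119, adjusted p = 0.00541). All 3 calls share the WT samples and all were lost without WT replicate 3, the lowest WT sample, at log2 fold changes of 0.33, 0.30 and 0.53 (adjusted p = 0.132, 0.180 and 0.0689). They were also lost without replicate 1 of the mutant line concerned (adjusted p = 0.0566 in Y641F, 0.172 in A677G and 0.0518 in the LOF mutant).

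ADAMTS1 and ADAMTS5 lie side by side on the minus strand of chromosome 21, with 72512 bases between them and no other gene of the table in the gap. The nearest genes on either side, GABPA, APP, N6AMT1 and LTN1, passed the threshold in no line against WT, with log2 fold changes between -0.07 and 0.30. Over the 130 tested genes of chromosome 21, the median log2 fold change was 0.04 in Y641F, 0.04 in A677G and 0.02 in the LOF mutant.

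Of the 3 downregulated genes in this group, ADAMTS20 (ENSG00000173157.18, chr12:43353866-43552203), which cleaves versican during development, changed most. Its level was 3.22, 3.68 and 3.47 CPM in WT, 2.59, 2.44 and 3.00 in Y641F, 2.27, 2.11 and 1.43 in A677G and 4.33, 3.44 and 4.38 in the LOF mutant. Values in both GOF mutants lay below WT, and those of A677G were the lowest. ADAMTS20 fell by 43.6% in A677G (log2 fold change -0.83, SE 0.189, adjusted p = 0.00285), and its log2 fold change in Y641F was -0.37 (SE 0.182, adjusted p = 0.268).

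ADAMTS9 (ENSG00000163638.13, chr3:64515654-64688000), another versican-cleaving enzyme, measured 10.3, 11.0 and 11.3 CPM in WT, 9.89, 7.33 and 8.51 in Y641F, 8.21, 8.50 and 6.94 in A677G and 9.34, 10.2 and 9.74 in the LOF mutant. All values of the 3 mutant lines lay below WT. It fell by 27.1% in A677G (log2 fold change -0.46, SE 0.110, adjusted p = 0.00470; 0.0519 without A677G replicate 3). In Y641F the log2 fold change was -0.33 (SE 0.109, adjusted p = 0.0512), just outside the threshold, and it passed in the edgeR exact test (adjusted p = 0.0293), in DESeq2 (adjusted p = 0.0432), with upper-quartile factors (adjusted p = 0.0433) and without Y641F replicate 1 (log2 fold change -0.45, adjusted p = 0.00669).

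ADAMTS15 (ENSG00000166106.4, chr11:130448645-130476645), an aggrecan- and versican-degrading enzyme, measured 6.17, 5.05 and 4.98 CPM in WT, 4.45, 4.12 and 4.19 in Y641F, 4.40, 3.37 and 4.14 in A677G and 5.11, 5.65 and 6.05 in the LOF mutant. GOF values were all below WT. It fell by 26.5% in A677G (log2 fold change -0.44, SE 0.142, adjusted p = 0.0434), which was lost without WT replicate 1 or 2 or A677G replicate 2 or 3 (adjusted p from 0.0657 to 0.263) and with the GC trend of each sample removed (adjusted p = 0.0552). In Y641F the log2 fold change was -0.34 (SE 0.141, adjusted p = 0.148).

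The 7 other ADAMTS genes, ADAMTS6, ADAMTS7, ADAMTS10, ADAMTS13, ADAMTS17, ADAMTS18 and ADAMTS19, passed the threshold in no line. Their log2 fold changes ran from -0.74 (ADAMTS10, which acts on fibrillin microfibrils, in Y641F, adjusted p = 0.141) to 0.31 (ADAMTS13, the protease of von Willebrand factor, in the LOF mutant, adjusted p = 0.638). ADAMTS10 had 58, 59 and 54 counts in WT and 60, 24 and 32 in Y641F. In CPM these are 1.57, 1.53 and 1.63 in WT and 1.43, 0.630 and 0.757 in Y641F. All Y641F values lay below WT, with replicate 1 the closest to it.

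The ADAMTS-like genes were scarce, with 20 to 64 counts a sample. ADAMTSL3 (ENSG00000156218.13, chr15:83654088-84039842), a matrix glycoprotein, measured 1.73, 1.14 and 1.27 CPM in WT, 1.14, 1.10 and 1.09 in Y641F, 0.763, 0.590 and 0.631 in A677G and 1.03, 1.22 and 1.86 in the LOF mutant. A677G lay below all other samples. It fell by 51.8% in A677G (log2 fold change -1.05, SE 0.298, adjusted p = 0.0187), which was lost without WT replicate 1 or A677G replicate 2 or 3 (adjusted p from 0.0637 to 0.145). ADAMTSL4 (ENSG00000143382.16, chr1:150549369-150560937), which binds fibrillin, measured 0.785, 0.802 and 0.603 CPM in WT and 1.52, 1.37 and 1.23 in Y641F. It measured 0.740, 0.983 and 0.960 CPM in A677G and between 1.06 and 1.37 in the LOF mutant. Values in Y641F and the LOF mutant lay above WT, and those in A677G overlapped it. The rise in Y641F was 86.7% (log2 fold change 0.90, SE 0.283, adjusted p = 0.0417), and it lost the threshold whenever any 1 of the 6 compared samples was left out (adjusted p from 0.0579 to 0.152) and under 3 other settings (adjusted p from 0.0517 to 0.0717). ADAMTSL5 passed it in no line, with log2 fold changes of 0.03, -0.47 and -0.32.

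The EZH2 GOF mutants were next set against the LOF mutant. In the mean of Y641F and A677G, 8 of the 42 genes were lower than in the LOF mutant and 0 higher (also 0 at an unadjusted p under 0.05 and 0 in DESeq2), against 8.75% lower and 3.81% higher over all genes. At an unadjusted p under 0.05, 1414 of all 14263 genes tested were higher. MMP2 differed most, with a log2 fold change of -1.05 (SE 0.210, adjusted p = 3.93e-04), followed by ADAMTS20 at -0.82 (SE 0.155, adjusted p = 2.07e-04). TIMP3 differed by -0.37 (SE 0.0590, adjusted p = 1.60e-05) and ADAM23 by -0.38 (SE 0.0668, adjusted p = 7.58e-05), with less spread. ADAM19 (-0.42), ADAMTS2 (-0.50), ADAMTS15 (-0.45) and MMP17 (-0.54) made up the rest. In all of these but MMP17 every GOF replicate lay below every LOF replicate, which follows in part from their choice by a test of the same samples. The uncalled ADAMTS5 and the untested MMP14 were separated in the same way. How often this occurs over all genes was not counted. MMP17 was at the threshold (adjusted p = 0.0498) and was lost without Y641F replicate 3, A677G replicate 2 or 3, or LOF replicate 2 or 3 (adjusted p from 0.0574 to 0.229), with library totals alone (0.0575) and with just the compared lines in the fit (0.0642), as was ADAMTS15 without LOF replicate 3 (adjusted p = 0.0801). ADAMTS9 passed the threshold as well without Y641F replicate 1 (log2 fold change -0.30, adjusted p = 0.0186). ADAMTS5 and ADAM10, upregulated in both GOF mutants against WT, had log2 fold changes of -0.22 (adjusted p = 0.167) and 0.03 (adjusted p = 0.662) against the LOF mutant. ADAMTS1, at 0.09 (adjusted p = 0.339), passed the threshold once each sample's GC trend was removed (log2 fold change 0.15, adjusted p = 0.0256).

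Between the GOF mutants themselves, none of the 42 genes passed the threshold in either direction, against 0.0140% of all genes lower and 0.0701% higher in Y641F. At an unadjusted p under 0.05, 1 of the 42 was lower and 6 were higher in Y641F, beside 458 lower and 527 higher of all 14263 genes tested. The exact test and DESeq2 also called 0 of the 42. In particular, the 6 genes past the threshold against WT in 1 of the GOF mutants alone (MMP17, ADAMTS9, ADAMTS15, ADAMTS20, ADAMTSL3 and ADAMTSL4) were not shown to differ between the mutants. Their log2 fold changes of Y641F against A677G were 0.37, 0.12, 0.10, 0.46, 0.74 and 0.62, with adjusted p-values from 0.644 to 0.937.

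Genes that work with these proteases were counted from lists of regulators, partners, substrates and other matrix proteases. Of 99 listed genes, 68 were in the table and tested. In Y641F, 16 were downregulated and 3 upregulated, in A677G 19 and 2, and in the LOF mutant 0 and 1. As shares of the 68 these were 23.5% lower and 4.41% higher in Y641F, 27.9% lower and 2.94% higher in A677G and 0% lower and 1.47% higher in the LOF mutant, beside 5.59% and 2.09%, 6.48% and 2.07%, and 0.161% and 0.140% of all genes tested. The lists were chosen with earlier results of these data known, which can raise such shares, and the difference from all genes was not tested. The genes downregulated in both GOF mutants were SPOCK1, SPOCK3, SERPINE2, HTRA1, DPP4, TLL1, CTSL, DLL1, JAG2, NRG1, FBN2, LGI2 and TSPAN5, and SPINT2 and CDH2 were upregulated in both. SPOCK3, a testican that modulates MMP activity, went from 5.64 ± 0.183 (SD, n = 3) CPM in WT to 2.41 ± 0.281 in Y641F and 2.28 ± 0.408 in A677G (log2 fold changes -1.22 and -1.32, adjusted p = 1.26e-06 and 3.96e-07). LGI2, the 1 of 4 LGI ligands of ADAM11, ADAM22 and ADAM23 in the table, went from 12.6 ± 0.654 CPM to 6.23 ± 0.848 in Y641F and 5.20 ± 0.630 in A677G (log2 fold changes -1.01 and -1.27). Both fell beside ADAM23 in the same samples. TLL1, a procollagen C-proteinase, changed by -1.02 and -1.38 on the log2 scale, and HTRA1, a secreted serine protease, by -0.60 and -0.62. SERPINE2, a serine protease inhibitor, changed by -0.50 and -0.40, whereas SPINT2, an inhibitor of membrane serine proteases, rose by 25.9% and 25.1% in the GOF mutants and by 20.9% in the LOF mutant (adjusted p = 0.0434). Among 13 listed partners and activating convertases of ADAM10 and ADAM17, TSPAN5, a tetraspanin that escorts ADAM10, was the 1 downregulated in both GOF mutants, by 18.6% in Y641F and 15.1% in A677G, and 1 of 13 is a share close to that of all genes tested. RECK, a membrane-anchored MMP inhibitor, had log2 fold changes of -0.07, -0.07 and -0.09 in Y641F, A677G and the LOF mutant and passed the threshold in none.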

How the data were processed

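RNA was sequenced from 4 HEK293T lines (TruSeq Stranded mRNA, 3 replicates each). Per the methods, the authors trimmed reads with Trim Galore 0.6.5, aligned them to GRCh38 with STAR 2.7.9a, quantified them with Salmon 1.2.0 against a Gencode annotation and tested with edgeR 3.16. They deposited raw counts per gene symbol. How Salmon estimates became whole counts, and the filter behind 14438 genes, is not given in the sources used here. Whether counting used strand is not given either, so overlapping genes may share reads. Tests used edgeR 4.0.16 (R 4.3.3) with TMM factors, a quasi-likelihood fit to all 12 samples with 1 coefficient per line, filterByExpr, and Benjamini-Hochberg adjustment over 14263 genes. The quasi-likelihood test replaced the exact test of the methods, which was run as an alternative. Genes at 0 in all replicates of a line (175) were left out. Members and gene lists were chosen with earlier results of these data known. Sample values are given for genes past the threshold in any comparison, for TIMPs and for MMP2, MMP14, ADAM10 and ADAM17. Those of TIMP1 and TIMP2, and of ADAMTSL4 in the LOF mutant, are given as ranges. Listed related genes are named where both GOF mutants passed the threshold. Symbols were matched to GENCODE v44 for positions, transcript lengths and GC content (13272 by name, 809 by an older symbol, 357 without a match). Promoter sequences are from RefSeq. Alternatives were DESeq2 1.42.0, the exact test, other scalings and filters, GC trends, a replicate block, fewer lines in the fit and each replicate left out. The procedures were tested on simulated data. Replicate numbers did not pair samples (correlations of the 18 same-numbered pairs from -0.0557 to 0.0501).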

Additional observations from a re-analysis of the deposited data

Results flagged for a closer look

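For 8 genes the change in the EZH2 GOF mutants differed from that in the LOF mutant by the direct test of the mean of Y641F and A677G against the LOF mutant (edgeR quasi-likelihood test, adjusted p under 0.05). The log2 differences, lower in the GOF mutants in each case, were -1.05 for MMP2, -0.82 for ADAMTS20, -0.54 for MMP17, -0.50 for ADAMTS2, -0.45 for ADAMTS15, -0.42 for ADAM19, -0.38 for ADAM23 and -0.37 for TIMP3. Of all genes tested, 8.75% were lower and 3.81% higher by the same test. MMP17 was at the threshold (adjusted p = 0.0498) and was lost under 7 alternatives, and ADAMTS15 was lost under 1.

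MMP14 lay outside the tests because it was listed at 0 in all A677G replicates, and with such genes kept it was higher in the LOF mutant than in WT by 2.75 on the log2 scale. Of the 75 genes at 0 in A677G and counted in the LOF mutant, MMP14 had the highest ratio of mean LOF to mean WT CPM, 6.87, and 7 genes reached a ratio of at least 2.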

How the results depend on the processing

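For the 14 genes past the threshold against WT and for MMP14 in the LOF mutant, no called difference changed direction under the alternatives run. The related genes and most genes past the threshold in no line were not followed singly through the alternatives. The number of the 42 genes changed in Y641F against WT was 9, and 5 to 9 with 1 sample left out (5 without WT replicate 3). In A677G it was 13, and 8 to 11 with 1 sample left out (8 without A677G replicate 1 or without A677G replicate 3). In the LOF mutant it was 1, and 0 to 1 with 1 sample left out (0 without WT replicate 3 or LOF replicate 1), 2 with genes at 0 in a line kept (ADAMTS5 and MMP14), 3 with just the compared lines in the fit, and 2 with A677G left out of the fit, an alternative chosen after seeing the data. For Y641F against A677G it was 0, 0 with any 1 sample left out, and 1, MMP14, with genes at 0 kept. For the GOF mean against the LOF mutant it was 8, and 6 to 11 with 1 sample left out. The edgeR exact test takes 2 groups and was not run for that comparison. The medians of all genes moved by at most 0.06 on the log2 scale. Shares of all genes called were not counted under the alternatives, apart from those higher in the LOF mutant with genes at 0 kept (0.208%).

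The replicate numbers did not pair the samples. With the replicate block, 2 genes were changed in the LOF mutant, also with the GC trend removed (2), and ADAMTSL4 in Y641F was lost (adjusted p = 0.0521).

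MMP14 with genes at 0 kept ranged from 2.48 to 3.05 across alternatives, with adjusted p from 3.24e-15 to 5.13e-04. Depth limited what could be seen for genes with under 100 counts a sample, whose standard errors were several times those of the abundant sheddases.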
